A study of Rattus norvegicus with 62 samples.

Results

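The L4 dorsal root ganglion on the side of a constricted sciatic nerve was compared with the L4 ganglion of the opposite side in male rats, 5 weeks after chronic constriction injury (CCI). CCI places loose ligatures around the nerve and is a model of neuropathic pain. The members are the 5 injured-side (ipsilateral) and 5 opposite-side (contralateral) libraries labelled male and 5 weeks, 10 of the 62 libraries of the series, and every gene with enough counts was tested. The other libraries used here are those of males at 1 week after CCI (7 a side) and of females at 1 week (7 a side) and 5 weeks (6 a side) after CCI, and males labelled 24 h (6 a side), which enter only the fit of all libraries. All groups are rats (Rattus norvegicus) that had the same operation, so the opposite side comes from operated animals and not from unoperated ones. The labels used here name no strain, age or transgene, and they do not tie the male 5 week libraries to separate animals, so p-values measure the spread between these libraries. The series sets the opposite side as the control of the injured one, at both weeks and in both sexes.

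A dorsal root ganglion holds the cell bodies of sensory neurons, each wrapped by satellite glia, with Schwann cells, macrophages, fibroblasts and vessels between them. When the peripheral axon of such a neuron is damaged, the neuron is known to switch on transcription factors such as ATF3 and JUN, growth-associated proteins and a new set of neuropeptides, while ion channels, receptors and neurofilaments of the resting neuron are lowered. Satellite glia and macrophages of the ganglion are known to react at the same time. L4 holds only part of the neurons of the sciatic nerve, and whole ganglia were measured, so fewer cells of a type and less RNA per cell cannot be told apart.

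Each library held 18.9 to 24.4 M counts. The first principal component of the 10 libraries carried 53.4% of the variance and separated the sides, and on the second (15.6%) the injured-side library 3 stood farthest out, with the opposite-side library 3 at the same end. Neuron, satellite glia and Schwann cell markers fixed for a ganglion were present in every library, the T cell markers Cd3e and Cd3d lay between 0 and 0.464 CPM (the counts of a gene scaled to a common library size), and the spinal cord markers between 0 and 5.94 CPM, with Mnx1 at 0. Ribosomal RNA took 3.06% to 3.74% of counts on the opposite and 3.47% to 4.29% on the injured side. Among the genes that check the labels, the Y-linked Kdm5d was counted in all 10 libraries, at 26.4 to 28.5 CPM on the opposite and 22.8 to 28.9 CPM on the injured side. Eif2s3y, also Y-linked, was present in all 10 and was slightly lower on the injured side, with a log2 fold change of -0.15 (SE 0.0339, adjusted p = 8.49e-04).

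Of 18980 genes tested, 6589 (34.7%) differed between the sides, 3046 (16%) higher and 3543 (18.7%) lower on the injured side. Which direction held more calls depended on the libraries and the fit: there were 3061 higher and 2825 lower without opposite-side library 5, 3298 and 3248 without injured-side library 1, 2997 and 2686 without injured-side library 4, and 3173 and 2738 without injured-side library 5. Higher calls also outnumbered lower ones with no filter (3146 and 2950) and in the fit of all 62 libraries (3283 and 3113). Fold changes are given on the log2 scale as injured minus opposite side, from edgeR's quasi-likelihood test. A gene is called at an adjusted p under 0.05, with Benjamini-Hochberg adjustment over all genes tested. The SE of a log2 fold change or difference is its size divided by the square root of the F value of its test. It is worked back from the test and is not a fitted standard error. Most of the called differences were small: 75.5% stayed under 1.5-fold, and the median size among called genes was 0.32 on the log2 scale, while the median over all genes was -0.0018. The large differences lay on the upper side. More than 4-fold, 177 genes were higher and 9 lower, and more than 2-fold, 477 were higher and 189 lower. Of the genes called higher, 1824 had every injured-side library above every opposite-side library, and 2031 of those called lower had every one below. Over all 18980 genes tested, called or not, 1905 lay above in this way and 2078 below. Protein-coding genes were called more often (37.8%) than long non-coding RNAs (17.7%) and pseudogenes (19%), a difference that was not tested. Genes were named by a rule (given with the processing), and further members of a list are examples chosen after their values were seen. The counts of called members in each list below are to be read against the shares over all genes, 16% higher and 18.7% lower.

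**Figure D1:**
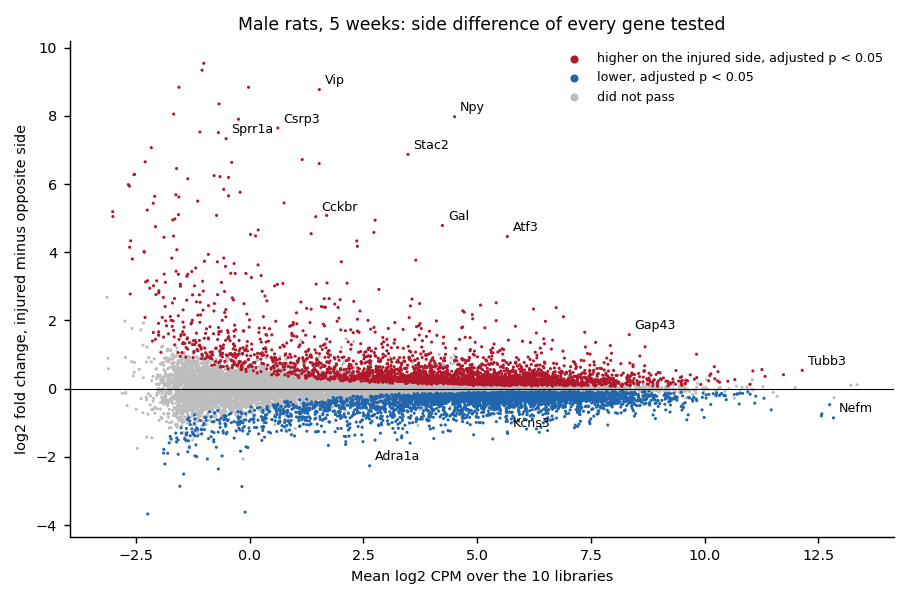
Log2 fold change of each of the 18980 genes tested (injured minus opposite side, vertical axis) against its mean log2 CPM over the 10 libraries (horizontal axis), with called genes in red (higher) and blue (lower). The points above 4 on the vertical axis, with Vip, Npy, Stac2, Gal and Atf3 among them, have no counterpart below -4, and Adra1a lies at -2.26.

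Neuropeptide genes were among the largest increases. Of 18 injury-related neuropeptide genes tested, 7 were called higher and 4 lower, against 16% and 18.7% of all genes, and the median log2 fold change of the list was 0.95. Vip, which encodes vasoactive intestinal peptide (GeneID 117064, chromosome 1, 42064878 to 42073219 in mRatBN7.2), had 0.248, 0.043, 0.232, 0.0529 and 0 CPM in opposite-side libraries 1 to 5 and 34.8, 61.2, 50.7, 61.4 and 50.4 CPM in injured-side libraries 1 to 5. Near the counting floor on the opposite side, it summed to 12 counts there and 6079 on the injured side, a ratio of 476 (95% counting interval 272 to 921). Npy, neuropeptide Y (GeneID 24604, chromosome 4, 78881294 to 78888495), had 0.891, 1.42, 1.21, 1.59 and 2.19 CPM on the opposite side and 185, 349, 343, 508 and 453 CPM on the injured side. Its log2 fold change was 7.97 (SE 0.333, adjusted p = 2.10e-13). Gal, galanin (GeneID 29141, chromosome 1, 200650439 to 200655302), went from 4.51, 3.36, 3.06, 4.18 and 3.31 CPM to 58.2, 109.8, 86.7, 163 and 86.7 CPM, a log2 fold change of 4.78 (SE 0.249, adjusted p = 5.86e-12). In all 3 genes the groups were far apart, and injured-side library 1 was the lowest of its group.

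The promoters of these 3 genes are shown because they belong to the genes that rose most. Each is the 250 bases before the start that RefSeq annotates in GRCr8, a newer build than that of the counts, 5′ to 3′. Capitals mark the letters TATAAA (the TATA box) and TGACG, the first letters of the cyclic AMP response element TGACGTCA, on either strand.
Vip, chr1:44470230-44470479, plus strand: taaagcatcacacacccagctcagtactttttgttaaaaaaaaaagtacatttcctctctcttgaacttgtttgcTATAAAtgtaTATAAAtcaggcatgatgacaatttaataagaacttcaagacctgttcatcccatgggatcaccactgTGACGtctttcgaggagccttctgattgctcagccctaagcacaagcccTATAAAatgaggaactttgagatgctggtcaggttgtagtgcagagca
Npy, chr4:80211861-80212110, plus strand: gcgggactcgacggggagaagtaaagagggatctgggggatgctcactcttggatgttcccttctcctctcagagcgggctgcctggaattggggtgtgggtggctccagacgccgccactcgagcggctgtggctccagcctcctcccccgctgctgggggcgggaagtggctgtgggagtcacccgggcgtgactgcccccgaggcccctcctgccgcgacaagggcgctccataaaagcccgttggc
Gal, chr1:210084573-210084822, minus strand: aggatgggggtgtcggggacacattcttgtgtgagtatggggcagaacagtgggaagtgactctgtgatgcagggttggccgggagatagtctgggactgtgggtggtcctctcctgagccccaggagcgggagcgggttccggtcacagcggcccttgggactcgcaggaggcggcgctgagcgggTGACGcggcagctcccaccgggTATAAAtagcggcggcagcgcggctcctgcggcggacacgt
The Vip window holds TATAAA 48 bases before the start and again farther out, and TGACG 97 bases before it. The Gal window holds TATAAA 41 bases and TGACG 63 bases before the start. The Npy window holds neither. Over all 33469 promoter windows of that length, 12.9% hold TATAAA and 18.2% hold TGACG. Promoters were found for 10 of the 12 largest increases and 8 of the 12 largest decreases, and the full TGACGTCA was in none of them, against 1.59% of all windows. The binding site of AP-1 (TGACTCA or TGAGTCA, either strand), the factor class to which ATF3 and JUN are related, was in the windows of 1 of the 10 and 2 of the 8, against 4.05% of all. They are those of Pde6b, which rose, and of Pla2g7 and Cntn4, which fell, and capitals mark the site.
Pde6b, chr14:1511436-1511685, minus strand: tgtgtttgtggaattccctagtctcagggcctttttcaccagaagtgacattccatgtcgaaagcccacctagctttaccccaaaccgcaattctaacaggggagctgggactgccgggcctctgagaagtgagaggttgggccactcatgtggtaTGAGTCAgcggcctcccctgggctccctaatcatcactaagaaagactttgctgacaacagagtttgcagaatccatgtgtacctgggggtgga
Pla2g7, chr9:24901748-24901997, minus strand: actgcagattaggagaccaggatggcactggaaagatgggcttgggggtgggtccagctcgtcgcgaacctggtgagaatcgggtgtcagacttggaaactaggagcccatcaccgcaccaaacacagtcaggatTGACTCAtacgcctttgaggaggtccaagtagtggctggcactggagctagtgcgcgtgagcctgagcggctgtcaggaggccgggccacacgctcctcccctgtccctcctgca
Cntn4, chr4:140180571-140180820, plus strand: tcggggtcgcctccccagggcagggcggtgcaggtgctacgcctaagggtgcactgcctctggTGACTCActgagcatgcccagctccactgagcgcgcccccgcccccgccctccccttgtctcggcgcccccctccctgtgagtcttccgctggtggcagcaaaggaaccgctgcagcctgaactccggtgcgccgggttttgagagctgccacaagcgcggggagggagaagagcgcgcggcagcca
A match is a description of the letters only.

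The remaining neuropeptides split by direction. Adcyap1, which encodes the peptide PACAP, rose from 62.5 ± 4.82 CPM to 168 ± 38.9 CPM (mean ± SD, n = 5 a side, as in all values of this form). Ucn (urocortin), Cck (cholecystokinin) and Pdyn (prodynorphin) also rose, from low levels of 0.0365 ± 0.0387, 0.318 ± 0.124 and 0.186 ± 0.105 CPM to 1.91 ± 0.618, 3.11 ± 1.96 and 1.67 ± 0.249 CPM. The 4 members called lower were Nmb, Sst, Penk and Scg2. Nmb, neuromedin B, fell from 46.9 ± 4.49 to 23.6 ± 3.65 CPM, and Sst, somatostatin, from 51.4 ± 7.31 to 30.2 ± 12.7 CPM. Penk (proenkephalin) and Scg2 (secretogranin II) fell, with log2 fold changes of -0.77 (SE 0.22) and -0.58 (SE 0.125). Calca, the gene of CGRP, was at 717 ± 76.2 and 569 ± 117 CPM and did not pass (adjusted p = 0.0504), nor did Tac1, the precursor of substance P, at 176 ± 17.7 and 175 ± 45.5 CPM (adjusted p = 0.975).

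Transcription factors of the injury response were higher on the injured side. Of 24 tested, 17 were called higher and 1 lower, with a median of 0.38. Atf3, a stress-induced factor of injured neurons (GeneID 25389, chromosome 13, 102751278 to 102800520), had 12.2, 10.4, 9.79, 11.5 and 10.7 CPM on the opposite side and 148, 249, 239.7, 305 and 259 CPM on the injured side. The groups did not overlap, and the log2 fold change was 4.46 (SE 0.174, adjusted p = 1.31e-13). Sox11, a factor of growing axons, rose from 1.5 ± 0.24 to 12.8 ± 3.71 CPM, and Jun, the AP-1 subunit, from between 85.1 and 106 to between 206 and 348 CPM, without overlap. Smad1, which carries bone morphogenetic protein signals, rose, with a log2 fold change of 1.13 (SE 0.072, adjusted p = 1.50e-11). The single member called lower was Ddit3, the stress factor CHOP, at -0.23 (SE 0.0854), a call that was lost without any of 8 of the 10 libraries in turn.

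Immediate early genes, which cells switch on within minutes of a stimulus, were called higher in 14 of 21 and lower in none, with a median of 0.47. Socs3, a feedback inhibitor of cytokine signals, rose from between 5.51 and 7.78 to between 15.4 and 31.8 CPM. Btg2, an anti-proliferative gene, rose, with a log2 fold change of 0.69 (SE 0.104, adjusted p = 1.10e-05). Fos rose from 5.48 ± 0.6 to 9.54 ± 2.21 CPM. Jun, Junb, Jund, Fosl1 and Fosl2 stand in both lists.

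Of 30 genes for proteins of the growth cone and of regrowing axons, 25 were called higher and 2 lower, and the median was 0.67. Gap43, the growth cone protein GAP-43, had 195, 184, 194, 179.7 and 188 CPM on the opposite and 429, 556, 599, 672 and 568 CPM on the injured side, a log2 fold change of 1.58 (SE 0.0857, adjusted p = 1.98e-12) without overlap. Gadd45a, a stress and repair gene, rose, with a log2 fold change of 2.00 (SE 0.112, adjusted p = 4.85e-12). Csrp3, a LIM protein otherwise known from muscle, had 9 counts over the opposite-side and 2127 over the injured-side libraries, a ratio of 222 (95% counting interval 117 to 486). Sprr1a, a small proline-rich protein of regrowing axons, had 3 counts on the opposite side, all in library 3, and 2.78, 5.58, 4.6, 6.78 and 6.83 CPM in the injured-side libraries, a ratio of 197 (95% counting interval 67.2 to 959). Ankrd1, Arg1, Flrt3, Stmn4 and Tubb6 rose, with log2 fold changes of 4.65, 2.61, 2.52, 2.45 and 2.28. The members called lower were Ngfr, the low-affinity neurotrophin receptor, at -0.27 (SE 0.0598), and Cap1, an actin-binding protein, at -0.07 (SE 0.0261). Without opposite-side library 1, 4 or 5 or injured-side library 1, 2, 4 or 5, 1 member was called lower.

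The cytoskeleton of the neuron changed in opposite directions by component. The 5 genes that gained most CPM were all of this kind: the tubulins Tubb3, Tuba1a and Tubb2b, the microtubule regulator Stmn2 and the intermediate filament peripherin (Prph). Tubb3, the neuronal beta tubulin, had 3699, 3704, 3658, 3693 and 4056 CPM on the opposite and 4638, 5402, 5918, 5605 and 5770 CPM on the injured side. Tubb2b rose from between 575 and 681 to between 1046 and 1454 CPM, and Prph from between 1702 and 1868 to between 2324 and 2686 CPM. Among the 5 genes that lost most CPM were the 3 neurofilament subunits Nefm, Nefl and Nefh and the microtubule-associated protein Map1b. Nefm, the medium neurofilament, had 8652, 9467, 10360, 10190 and 10360 CPM on the opposite side and 5159, 5370, 6132, 5093 and 5353 CPM on the injured side, a log2 fold change of -0.85 (SE 0.0807, adjusted p = 1.42e-08). Nefl and Nefh fell, with log2 fold changes of -0.80 (SE 0.0986) and -0.74 (SE 0.0784), and Map1b fell, with a log2 fold change of -0.47 (SE 0.059). In the genes of both sets named here no injured-side library overlapped the opposite side. CPM is not scaled by gene length, so long and abundant transcripts enter such a ranking first.

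Axon guidance genes were as often lower as higher, 14 and 13 of 49, with a median of -0.08. Draxin, a secreted guidance protein, rose from between 0.473 and 0.605 to between 11.6 and 20.9 CPM, a log2 fold change of 5.08 (SE 0.23, adjusted p = 1.31e-13). The semaphorins Sema6a and Sema3c rose, with log2 fold changes of 2.34 (SE 0.127) and 1.07 (SE 0.0954). Sema3f fell, with a log2 fold change of -0.65 (SE 0.0852) and Robo2, a receptor for Slit proteins, at -0.64 (SE 0.0735).

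Secreted factors that act on glia and macrophages were called higher in 14 of 27 and lower in 1, with a median of 0.61. Csf1, the growth factor of macrophages and microglia, had 24.5, 21.1, 16.3, 19.2 and 16.4 CPM on the opposite and 61.4, 81, 57.5, 74.8 and 61.4 CPM on the injured side, without overlap. Bdnf, brain-derived neurotrophic factor, rose from between 13.7 and 16.4 to between 27.2 and 37.7 CPM, and Alkal2, a ligand of the ALK receptor, at 2.36 (SE 0.238, adjusted p = 3.97e-08). Il6, interleukin 6, summed to 4 counts on the opposite and 111 on the injured side, a ratio of 26.1 (95% counting interval 9.9 to 97.3). Ccl2, a monocyte chemokine, rose from 10.8 ± 1.74 to 21.7 ± 1.74 CPM. The member called lower was Nrg1, neuregulin 1, which signals from axons to Schwann cells, at -0.52 (SE 0.0587).

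The other genes among the 12 largest increases belong to different classes. Stac2, an adaptor of voltage-gated calcium channels, had 1.14, 1.29, 0.928, 1.16 and 0.605 CPM on the opposite and 70.4, 128, 107, 165 and 129.9 CPM on the injured side, a log2 fold change of 6.87 (SE 0.289, adjusted p = 2.10e-13). Ptprh, a receptor tyrosine phosphatase, rose from between 0.186 and 0.387 to between 11 and 45.5 CPM. Cckbr, the cholecystokinin B receptor, rose from between 0.317 and 0.594 to between 10.1 and 19.3 CPM, so that both this receptor and Cck were higher. Tgm1 (a transglutaminase), Reg3b (a secreted lectin) and Pde6b (a phosphodiesterase subunit known from rod photoreceptors) rose, with log2 fold changes of 4.58 (SE 0.341), 4.33 (SE 0.387) and 4.17 (SE 0.353). Serpina3n, a protease inhibitor, differed widely between libraries of a side. Its injured-side libraries had 6.08, 17, 152, 16.9 and 130.1 CPM and its opposite-side libraries 0.446, 0.517, 4.96, 0.899 and 3.59 CPM, with numbers 3 and 5 the highest on both sides. Its log2 fold change of 4.94 (SE 1.1, adjusted p = 0.0013) did not pass with limma-voom (adjusted p = 0.0987).

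**Figure D2:**
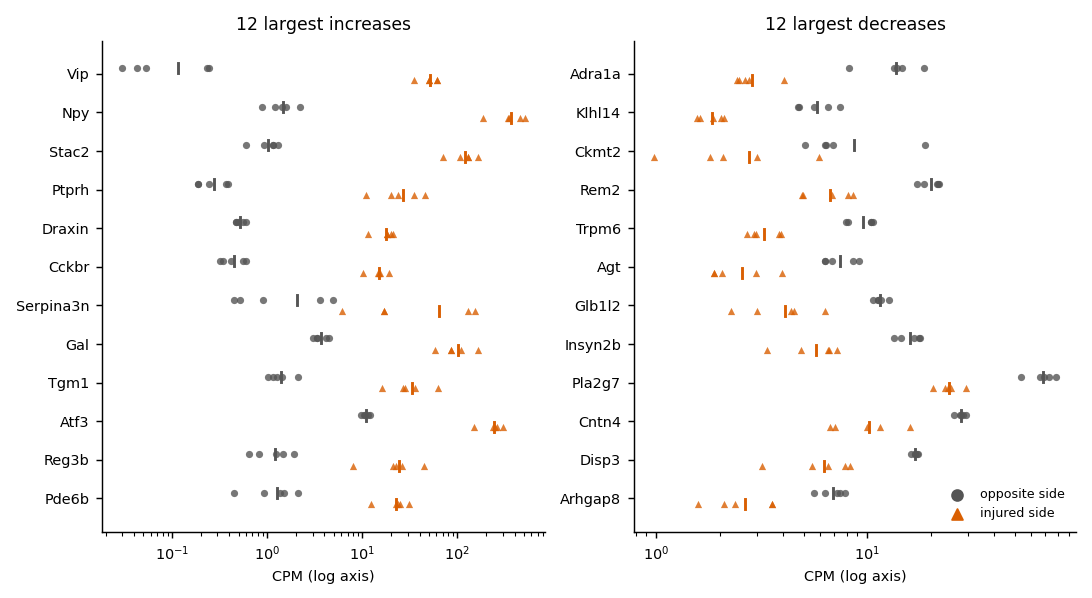
CPM in each library (log axis) of the 12 largest increases (left) and the 12 largest decreases (right), with circles for the opposite side, triangles for the injured side and bars for the group means. The sides are separate in 23 of the 24 genes, with Ckmt2 as the exception, and the Vip library with 0 counts is drawn at 0.03. These genes were picked for large called changes with the same sign in all 5 pairs, which largely fixes their separation. Over all 18980 genes tested, 1905 had every injured-side library above every opposite-side one, and 2078 had every one below.

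Potassium channel genes were mostly lower on the injured side. Of 52 tested, 34 were called lower and 4 higher, against 18.7% and 16% of all genes, and the median was -0.53. Potassium channels bring the membrane back to rest and limit firing. Kcns3, a modulatory subunit, had 77.2, 72.2, 78.6, 87.1 and 80.7 CPM on the opposite side and 42.4, 33.7, 35.4, 25.8 and 27.2 CPM on the injured side, a log2 fold change of -1.27 (SE 0.122, adjusted p = 3.35e-08). Kcnn2, a small-conductance calcium-activated channel, fell from between 11.7 and 13 to between 5.54 and 7.1 CPM and Kcnk1, a 2-pore leak channel, from between 63.6 and 83 to between 43.4 and 54.3 CPM. The sides did not overlap in these 3 genes. Kcna2, the Kv1.2 channel of large sensory neurons, fell from 657 ± 55.1 to 358 ± 36.5 CPM, and Kcng3, Kcnh7 and Kcns1 fell, with log2 fold changes of -1.39 (SE 0.177), -1.28 (SE 0.124) and -1.18 (SE 0.144). Among the members called higher were Kcnk13, Kcna6 and Kcnh1, at 0.92, 0.21 and 0.20. Kcnj10, the potassium channel of satellite glia, was at 195 ± 11.3 and 182 ± 9.93 CPM and did not pass (adjusted p = 0.178).

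Of 18 sodium channel genes, 8 were lower and 3 higher (median -0.24), and of 28 calcium channel genes, 8 were lower and 4 higher (median -0.07), against 18.7% and 16% of all genes, and the calcium list lay near those shares. Scn1a and Scn8a, the channels Nav1.1 and Nav1.6, fell from between 179.6 and 210.1 to between 109 and 126 CPM and from between 324 and 403 to between 212 and 251 CPM. The nociceptor channels Scn10a (Nav1.8) and Scn11a (Nav1.9) fell, with log2 fold changes of -0.62 (SE 0.128) and -0.72 (SE 0.167). Scn9a (Nav1.7), at 289.7 ± 26.7 and 263 ± 33.5 CPM, did not pass (adjusted p = 0.198). The sodium channels called higher were the beta subunit Scn3b, from between 55.1 and 71.7 to between 94.4 and 116 CPM, Scn3a (Nav1.3), from between 17.5 and 19 to between 20.1 and 28.3 CPM, and Scn7a, at 0.28 (SE 0.075). Cacna2d1, the alpha-2-delta-1 subunit to which gabapentin binds, had 58.4, 56.5, 54, 61.4 and 57.7 CPM on the opposite and 194, 245, 243, 307 and 254 CPM on the injured side, a log2 fold change of 2.11 (SE 0.118, adjusted p = 6.31e-12) without overlap. Besides Stac2 and Cacna2d1, the calcium channel genes called higher were Cacnb1 and Cacna1b, at 0.59 (SE 0.0605) and 0.18 (SE 0.0472). Rem2, a small GTPase that lowers calcium currents, fell from between 17.3 and 21.8 to between 4.93 and 8.59 CPM, and Cacna1h, a T-type channel, fell, with a log2 fold change of -0.86 (SE 0.149).

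**Figure D3:**
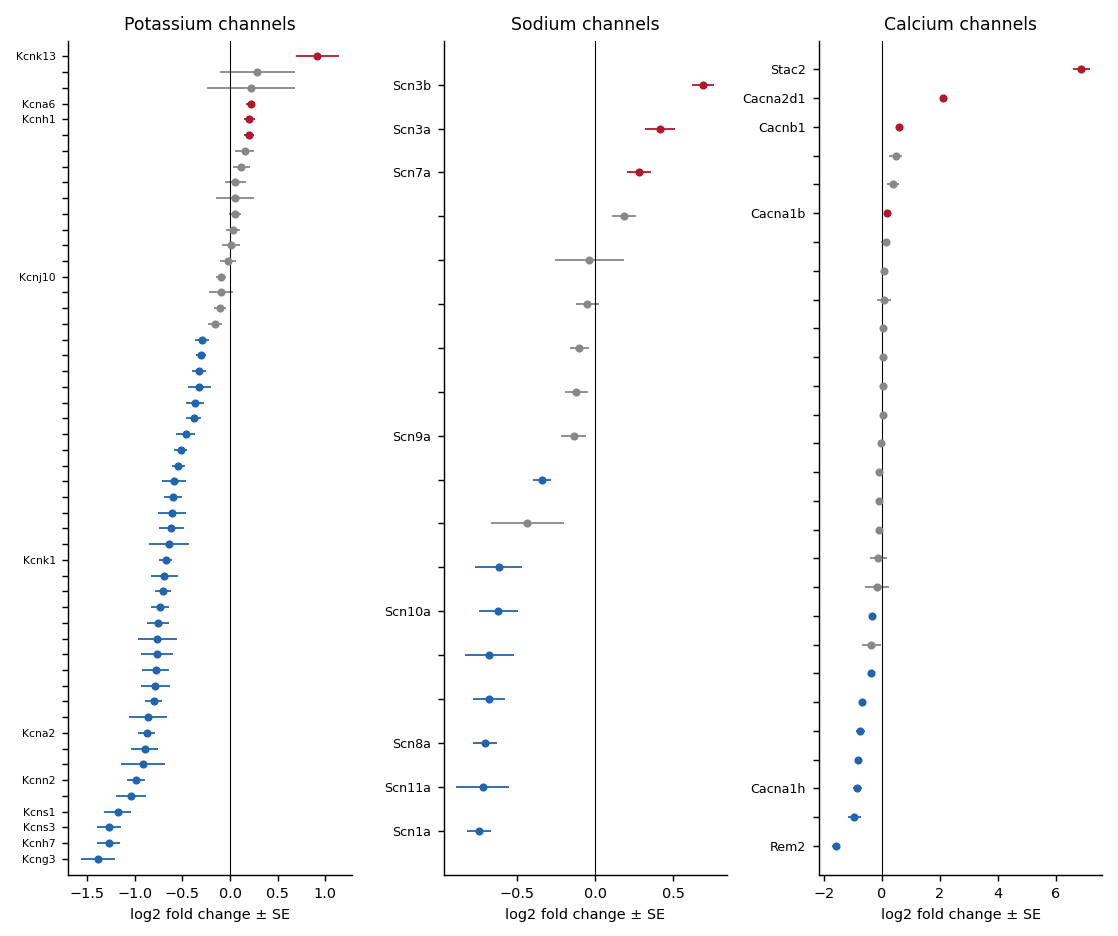
Log2 fold change with its SE, as defined in the text, of every potassium, sodium and calcium channel gene tested. Called members are in red (higher) or blue (lower) and the rest in grey. Labels mark the genes named in the text, and each panel has a separate horizontal scale. Potassium channels run from -1.39 (Kcng3) to 0.92 (Kcnk13), and Stac2 at 6.87 stands alone among the calcium channel genes.

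Channels of sensory transduction were called lower in 13 and higher in 6 of 35 (median -0.18). P2rx2, an ATP-gated channel, rose from between 4.8 and 6.36 to between 12.9 and 17.2 CPM, and its relative P2rx6 fell from between 24.9 and 36.9 to between 11.7 and 16.3 CPM, both without overlap. Trpm6, a magnesium-permeable channel, fell, with a log2 fold change of -1.55 (SE 0.161, adjusted p = 5.24e-08). The heat and capsaicin receptor Trpv1 fell from 127 ± 4.36 to 90.7 ± 18.9 CPM and the touch channel Piezo2 from 453 ± 14.9 to 347 ± 46.7 CPM. Trpm8 and Trpa1, channels for cold and irritants, were at log2 fold changes of -0.01 (SE 0.077) and -0.06 (SE 0.33) and did not pass.

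Receptors for opioids, amines and peptides were called lower in 13 and higher in 6 of 39 (median -0.4). Adra1a, the alpha-1A adrenergic receptor, was the largest decrease that the naming rule allows. It had 8.22, 13.4, 14.7, 18.6 and 13.9 CPM on the opposite side and 2.63, 2.77, 2.41, 4.04 and 2.46 CPM on the injured side, a log2 fold change of -2.26 (SE 0.198, adjusted p = 5.82e-09) without overlap. The opioid receptors Oprm1 (mu), Oprk1 (kappa) and Oprd1 (delta) fell, with log2 fold changes of -0.67 (SE 0.165), -0.67 (SE 0.207) and -1.24 (SE 0.313), and the cannabinoid receptor Cnr1 fell, with a log2 fold change of -1.07 (SE 0.117). The serotonin-gated channel subunits Htr3a and Htr3b fell from 126 ± 6.7 and 82.4 ± 3.99 CPM to 63.2 ± 19.9 and 33.4 ± 12.9 CPM. Npy2r, the Y2 receptor for neuropeptide Y, rose from between 8.8 and 11.4 to between 24.2 and 35.2 CPM, and Galr2, a galanin receptor, at 0.40 (SE 0.0645).

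Receptor subunits for GABA and glutamate were called lower in 12 and higher in 5 of 34 (median -0.15), with different subunits moving in opposite directions. The GABA-A subunits Gabra5 and Gabrb1 rose, Gabra5 from 5.45, 4.0, 6.12, 5.87 and 7.22 CPM to 19.4, 26.2, 34.2, 44.6 and 36.8 CPM and Gabrb1 at 2.39 (SE 0.199, adjusted p = 1.66e-09). Grin3a, an NMDA receptor subunit, fell from 10.5 ± 0.891 to 5.48 ± 0.71 CPM. Grin2b, of the same receptor, rose from between 4.13 and 6.77 to between 8.94 and 12.6 CPM. The other members called higher were the kainate receptor subunits Grik5 and Grik3, at 0.27 (SE 0.0567) and 0.25 (SE 0.0881).

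Markers of sensory neuron subtypes were lower as a list: 29 of 46 were called lower and 5 higher, and the median was -0.45. Pvalb of proprioceptors fell, with a log2 fold change of -0.92 (SE 0.119), Mafa and Ntrk3 of large mechanoreceptors at -0.84 (SE 0.108) and -0.49 (SE 0.0519), Mrgprd of non-peptidergic nociceptors at -1.07 (SE 0.259) and Th of C-fibre touch neurons at -1.10 (SE 0.277). The 5 called higher were Gfra1, Gfra3, Prph, Slc17a6 and Calb1. Gfra1, the co-receptor for GDNF, had 277, 261, 265, 282 and 268 CPM on the opposite side and 513, 636, 630.2, 745 and 647 CPM on the injured side. Gfra3, the co-receptor for artemin, rose from between 53.9 and 67.4 to between 90.5 and 139.6 CPM, Slc17a6, a vesicular glutamate transporter, at 0.29 (SE 0.0519), and Calb1, calbindin, at 1.05 (SE 0.263). The general neuron marker Rbfox3 fell, with a log2 fold change of -0.59 (SE 0.107), while Pou4f1, a sensory neuron factor, was at 0.04 (SE 0.0371) and did not pass (adjusted p = 0.409).

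Synaptic vesicle and release genes were called lower in 21 and higher in 4 of 33 (median -0.24). Vamp1, a vesicle fusion protein, had 905 to 1151 CPM on the opposite and 524 to 661 CPM on the injured side. Rims1 and Pclo, proteins of the release site, fell, with log2 fold changes of -0.58 (SE 0.065) and -0.47 (SE 0.0552), and Snap25, the membrane fusion partner, at -0.62 (SE 0.0766). The members called higher were Syt4, Stx1a, Sv2a and Vamp2, at 0.75, 0.57, 0.47 and 0.17.

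The remaining genes among the 12 largest decreases belong to no single class. Pla2g7, an enzyme that inactivates platelet-activating factor, had 53.8, 65.8, 68.7, 78.8 and 72.9 CPM on the opposite and 20.4, 24.9, 29.5, 24.1 and 23.4 CPM on the injured side, a log2 fold change of -1.47 (SE 0.145, adjusted p = 5.24e-08). Cntn4, a contactin of axons, fell from between 25.9 and 29.3 to between 6.66 and 16 CPM. Agt, angiotensinogen, fell from between 6.29 and 9.17 to between 1.87 and 3.97 CPM, and Disp3, a membrane protein of the Dispatched family, from between 16.2 and 17.4 to between 3.16 and 8.29 CPM. Klhl14, Glb1l2, Insyn2b and Arhgap8 fell, with log2 fold changes of -1.66 (SE 0.177), -1.50 (SE 0.226), -1.50 (SE 0.207) and -1.39 (SE 0.35). Ckmt2, a creatine kinase of muscle mitochondria, fell, with a log2 fold change of -1.63 (SE 0.439, adjusted p = 0.00566), but its sides overlapped, with 5.1, 6.29, 6.36, 6.87 and 18.8 CPM on the opposite and 0.979, 1.81, 3.02, 2.08 and 5.94 CPM on the injured side. Both libraries numbered 5 were the highest of their side. The skeletal muscle genes Atp2a1 and Myh4 were also highest in opposite-side library 5, at 1.49, 0.646, 0.975, 1.11 and 10.5 CPM and 0.495, 0.689, 0.882, 1.0 and 4.47 CPM over the opposite-side libraries, and the part of muscle RNA in the Ckmt2 result was not tested.

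Genes of energy metabolism shifted by small amounts. Of 62 nuclear genes for subunits of the respiratory chain and ATP synthase, 36 were called lower and 1 higher, and the median was -0.16. Ndufs1, of complex I, had 181 to 196 CPM on the opposite and 140.1 to 160.1 CPM on the injured side. Sdha of complex II and Atp5f1a of ATP synthase fell, with log2 fold changes of -0.40 (SE 0.0459) and -0.26 (SE 0.0389). The member called higher was Atp5mc2, at 0.13 (SE 0.0478), a call lost without opposite-side library 1 or 4 or injured-side library 3. The count of members called lower lay between 26 and 41 when each library was left out in turn.

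Cholesterol synthesis genes were called higher in 9 of 25 and lower in none (median 0.05). Dhcr7, an enzyme late in the pathway, rose from between 54.6 and 61.9 to between 68 and 72.6 CPM, and Acat2, an enzyme at its start, at 0.20 (SE 0.0386, adjusted p = 2.58e-04). Targets of the stress factor ATF4 were called higher in 5 and lower in 9 of 29, against 16% and 18.7% of all genes. The count called lower was 5 to 8 with each library left out, 7 with RLE scaling or DESeq2 and 8 with the replicate block. Aldh1l2, a mitochondrial folate enzyme, rose from between 2.0 and 3.59 to between 6.53 and 14.6 CPM, Vldlr rose, with a log2 fold change of 0.37 (SE 0.0596), and Pycr1, of proline synthesis, fell, with a log2 fold change of -0.80 (SE 0.123). Of 17 aminoacyl-tRNA synthetases, 6 were called lower and 2 higher, against 18.7% and 16% of all genes. Aars1 fell from between 399 and 438 to between 328 and 363 CPM and Iars1 at -0.40 (SE 0.0466), and the 2 higher were Tars1 and Rars1, at 0.27 (SE 0.0498) and 0.16 (SE 0.0406). Without injured-side library 5, 5 ATF4 targets and 3 synthetases were called lower, and without injured-side library 4, 3 synthetases. Without injured-side library 1, 5 synthetases were called higher.

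Satellite glia genes were called higher in 11 and lower in 5 of 26, with a median of -0.06. Gfap, the filament protein of reactive glia, had 13.8, 13, 17.4, 15.1 and 10.01 CPM on the opposite and 39, 55.6, 41.4, 52.6 and 53.3 CPM on the injured side, a log2 fold change of 1.81 (SE 0.203, adjusted p = 4.12e-07). Entpd2, an ATP-splitting surface enzyme of glia, rose from between 95.7 and 119.6 to between 166 and 201 CPM, and Vim, vimentin, from between 921 and 1152 to between 1422 and 1633 CPM. The members called lower were Ednrb, S100b, Fbln5, Sparcl1 and Slc1a3, the last, a glutamate transporter, at -0.44 (SE 0.0733). Fabp7, the defining satellite glia marker, was at 20.5 ± 4.86 and 17.3 ± 3.24 CPM and did not pass (adjusted p = 0.258). With the replicate block, 9 satellite genes were called lower, and without opposite-side library 5 or injured-side library 1, 3.

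Of 25 myelin genes, 3 were called higher and 2 lower, with a median of -0.21. Cnp, an enzyme of myelin, rose, with a log2 fold change of 0.31 (SE 0.0721) and Dhh, a signal from Schwann cells, at 0.19 (SE 0.0731). The members called lower were Nfasc, neurofascin of the node, at -0.32 (SE 0.0471), and the lipid-binding Pmp2, at -0.89 (SE 0.191). Repair Schwann cell genes were called higher in 15 and lower in 1 of 23 (median 0.42). Several of these, such as Jun and Bdnf, are also genes of injured neurons, and Cdkn1a, a cell cycle inhibitor in this list, rose from between 4.32 and 5.38 to between 11.3 and 22.3 CPM. With the replicate block, 6 myelin genes were called lower, and without injured-side library 1, 5.

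Macrophage and microglia markers were called higher in 10 and lower in 1 of 40, against 16% and 18.7% of all genes, and their median was 0.41. Summed over the list, opposite-side libraries held 2332 to 2472 CPM and injured-side libraries 2520 to 2794 CPM. Lgals3, galectin 3, which neurons also make, had 133 to 155 CPM on the opposite and 216 to 241 CPM on the injured side, a log2 fold change of 0.69 (SE 0.0488, adjusted p = 1.07e-10). The mean of Lgals3 alone went from 140 to 226 CPM, within a rise of the list's summed mean from 2424 to 2683 CPM. The Fc receptor genes Fcgr3a and Fcgr2b rose, with log2 fold changes of 1.88 (SE 0.551, adjusted p = 0.0102) and 1.10 (SE 0.261, adjusted p = 0.0018), and Aif1 (IBA1) from between 5.75 and 10.1 to between 11 and 14.9 CPM. The defining markers Csf1r and Cd68 were at 0.40 (SE 0.238) and 0.60 (SE 0.342) and did not pass (adjusted p = 0.217 and 0.194). Cd163, a scavenger receptor of resident macrophages, was the member called lower, at -0.98 (SE 0.325), and no member was without opposite-side library 2 or 4 or injured-side library 1. The number called higher was 22 with the replicate block and 15 in a fit of the 10 male 5 week libraries alone. It was 5 without opposite-side library 3 or 5, 6 without injured-side library 4 and 16 without injured-side library 3.

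Of 16 antigen presentation genes of MHC class II tested, 10 were called higher and 1 lower, and the median was 0.9. Cd74, the invariant chain, had 173, 136, 66.4, 83.1 and 117 CPM on the opposite and 328, 236, 131, 318 and 331 CPM on the injured side, with overlap between sides but a higher injured side in all 5 pairs of equal number. RT1-Db1 and RT1-Db2, class II chains whose similar sequences can share reads, rose, with log2 fold changes of 1.23 (SE 0.298) and 1.53 (SE 0.296). Flt3, which is in the list as a cytokine receptor of dendritic cell precursors and is not a class II gene, was called lower at -0.57 (SE 0.0737). The cells that Flt3 came from were not tested.

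Complement genes were called higher in 6 and lower in 1 of 26 (median 0.29), 26.9% in either direction against 34.7% of all genes. C4a had 46.6, 56, 39.1, 47.4 and 38.4 CPM on the opposite and 166, 156, 83.1, 148 and 154 CPM on the injured side, where library 3 was the lowest. C4a and C4b are near-identical copies, so their separate values are uncertain. Cfi rose, with a log2 fold change of 0.57 (SE 0.168) and Cd59, a shield against complement, at 0.24 (SE 0.0469). Cd55, which also limits complement, was called lower, at -0.36 (SE 0.131), a call lost without opposite-side library 1, 4 or 5 or any injured-side library other than number 1. The count of members called higher was 11 with the replicate block and 3 without opposite-side library 3. Lymphocyte genes were called higher in 3 of 23, or 13% against 16% of all genes. They were Gzmb, Pax5 and Cd6. The Cd6 call was lost under 11 alternatives, among them leaving out opposite-side library 2, 3, 4 or 5 or injured-side library 1, 4 or 5. No lymphocyte gene was called lower, but 3 were with the replicate block or without injured-side library 1. Gzmb, granzyme B, summed to 16 counts on the opposite and 259 on the injured side, a ratio of 15.2 (95% counting interval 9.18 to 27), while the T cell markers Cd3e and Cd3d stayed at or under 0.464 CPM in all libraries. Of 44 interferon and MHC class I genes, 3 were called higher, Gbp2, Gbp4 and Mx2, at 0.93, 0.93 and 0.91, and 13 with the replicate block. The Mx2 call was lost under 10 alternatives, among them leaving out any of the opposite-side libraries or injured-side library 2 or 4.

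Cell cycle genes were called higher in 11 and lower in 1 of 38 (median 0.33), 31.6% in either direction against 34.7% of all genes. Mcm5, a helicase subunit of DNA replication, had 3.81, 2.84, 4.69, 4.23 and 3.63 CPM on the opposite and 7.93, 12.5, 10.4, 14.3 and 15.2 CPM on the injured side. Stmn1, which is also a neuronal protein, rose, with a log2 fold change of 0.54 (SE 0.0493). The mitotic genes Prc1 and Cdk1 rose from 4.36 ± 1.22 and 1.56 ± 0.43 CPM to 8.38 ± 1.67 and 2.77 ± 0.778 CPM, and Ccne1, cyclin E1, fell, with a log2 fold change of -0.38 (SE 0.0878). Without opposite-side library 3 the number called higher was 23.

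Matrix, vessel and blood genes gave few calls, in 10%, 6.25% and 3.57% of members, against 34.7% of all genes. Collagens and fibroblast genes were called higher in 4 of 40, with a median of 0.08. They were Col16a1, which had 146 to 178 CPM on the opposite and 268 to 346 CPM on the injured side, Thbs2, Col18a1 and Col5a3. The fibrillar collagens Col1a1 and Col1a2 were at 0.16 (SE 0.161) and 0.09 (SE 0.154) and did not pass. Of 32 genes of endothelium, pericytes and barrier, Abcc9, a pericyte gene, was called higher, at 0.74 (SE 0.125). Ackr1, a chemokine-binding receptor known from venules, was called lower, from between 257 and 314 to between 199.9 and 231 CPM. The endothelial markers Pecam1, Cdh5 and Cldn5 lay lower, between 13.1 and 54.1 CPM, and did not pass. The cells that Ackr1 came from were not tested. Of 28 blood cell genes, Kit alone was called, at 0.17 (SE 0.0525), and hemoglobin took 0.047% to 0.209% of counts on the opposite and 0.0585% to 0.252% on the injured side. The Kit call was lost without injured-side library 3. The number of matrix genes called higher was 7 with the replicate block and 7 without injured-side library 3.

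Summed over the muscle, fat and bone list, opposite-side libraries held 61.4 to 115.7 CPM, and injured-side library 4 held 219.9 CPM against 46.5 to 61 CPM in the other injured-side libraries. Of 19 muscle, fat and bone genes, Cidec and Ibsp were called higher and Atp2a1 and Myh4 lower. Cidec, a lipid droplet gene, summed to 19 counts on the opposite and 261 on the injured side, and Ibsp, a bone gene, had 3.61, 4.74, 4.55, 26.8 and 4.81 CPM on the injured side, highest in library 4. Chosen after their values were seen, the cartilage collagen Col2a1 and the osteoclast enzyme Acp5 were also highest in that library, at 25.9, 22.2, 18.2, 90.5 and 18.2 CPM and 5.67, 2.73, 1.66, 35.8 and 4.16 CPM. The Ibsp call was lost without injured-side library 4. No gene of this list was called lower without opposite-side library 5 or injured-side library 2 or 5, and 1 was without injured-side library 1 or 3. The Atp2a1 call was also lost without injured-side library 4, with no filter, with DESeq2 and with limma-voom. Of 10 spinal cord genes, 3 were called higher and 1 lower, 40% in either direction against 34.7% of all genes. Slc6a5, a glycine transporter, went from 0.475 ± 0.137 to 1.13 ± 0.288 CPM, Cspg5 and Slc5a7 rose, with log2 fold changes of 0.45 (SE 0.0941) and 0.31 (SE 0.12), and Hapln2, a matrix protein of nodes, fell, with a log2 fold change of -0.84 (SE 0.158).

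**Figure D4:**
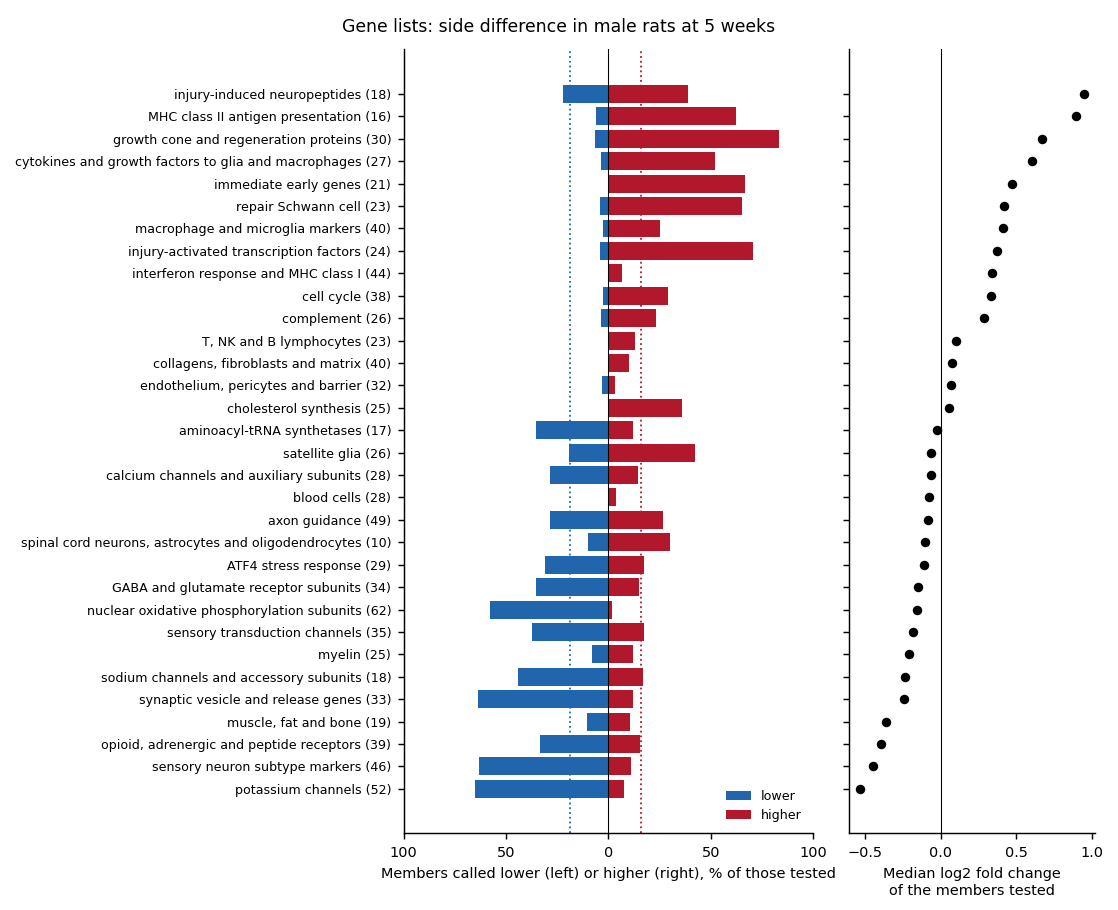
Share of the tested members of each of the 32 gene lists that was called lower (blue) or higher (red) on the injured side, with the number tested in parentheses and dotted lines at the shares over all genes (18.7% and 16%), and the median log2 fold change of each list on the right. Potassium channels lie lowest, at a median of -0.53, and neuropeptides highest, at 0.95.

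At 1 week the same comparison in other male libraries gave 8916 called genes. Those libraries were deeper (24.6 to 33.5 M counts) and more numerous (7 a side against 5). The part of depth and of the number of libraries was not tested. Of the 6589 genes called at 5 weeks, 83.9% were called in the same direction at 1 week, and these are 62% of the 1 week calls, while 15 genes were called in opposite directions. A test of the difference between the 2 side differences, in the same fit, called 40 of 18980 genes (0.211%), 15 with a higher value at 5 weeks and 25 with a lower one, and 1994 genes had an unadjusted p under 0.05. With the replicate block 497 genes were called (167 higher, 330 lower), all 40 among them.

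The genes with a higher value at 5 weeks were a mixed set, in which some rose more and others no longer lay below the opposite side. Cdk18, a cyclin-dependent kinase of neurons, had 5.45, 5.64, 5.94, 5.18 and 6.01 CPM on the opposite and 15.3, 22.2, 19.8, 18.9 and 17.9 CPM on the injured side at 5 weeks, a log2 fold change of 1.74 against 0.60 at 1 week. The difference was 1.14 (SE 0.113, adjusted p = 7.13e-06). Cpne9, a copine, was at 1.69 against 0.61, and Cdh22, a cadherin, at 2.38 against 0.76, differences of 1.08 (SE 0.132, adjusted p = 1.77e-04) and 1.62 (SE 0.241, adjusted p = 0.00166). Chrm2, the M2 muscarinic receptor, was at 0.37 against -0.33, and Prrt2, a presynaptic protein, at 0.27 against -0.14. Elovl6, a fatty acid elongase, was at 0.03 at 5 weeks, where it did not pass, against -0.30 at 1 week. Lhx9, a homeobox factor outside the naming rule because of its low level, went from 0.29 ± 0.15 to 1.43 ± 0.581 CPM at 5 weeks and was at -0.19 at 1 week (adjusted p of the difference = 0.01).

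The genes with less at 5 weeks include some that did not pass the test between sides at 5 weeks. Grem1, an antagonist of bone morphogenetic proteins, was at 1.36 at 1 week and at -0.22 at 5 weeks, where it did not pass (adjusted p = 0.331), a difference of -1.58 (SE 0.205, adjusted p = 2.44e-04). Tph2, which makes serotonin in neurons, had 12.1, 9.86, 8.4, 7.67 and 10.5 CPM on the opposite and 17.7, 20.6, 24.4, 20.7 and 20.2 CPM on the injured side at 5 weeks, at 1.09 against 2.24. Itga7, a laminin receptor subunit of regrowing axons, was at 0.36 against 0.77, and Setd7, a lysine methyltransferase, at -0.42 against 0.13. Stat3, which carries IL-6 family signals, was at 0.24 against 0.46, and Parp1, of DNA repair, at -0.08 against 0.14. The side difference of Parp1 at 5 weeks was itself lost under 12 alternatives. Both of these calls were lost when the libraries numbered 3 were left out, and that of Stat3 without injured-side library 5. Without opposite-side library 2 the test called 26 genes, and without injured-side library 1 it called 27 with a higher value in place of 15.

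List by list, the difference between weeks was clearest with the block. No macrophage marker passed the test of the difference without the block, although 35 of 40 were called higher at 1 week (median 1.18) and 10 at 5 weeks. Blood cell genes, whose part in this was not tested, were called higher in 22 of 28 at 1 week (median 1.58) and in 1 at 5 weeks (median -0.08), and lymphocyte genes in 11 and 3 of 23. Over all 18980 genes tested, 8916 were called in either direction at 1 week and 6589 at 5 weeks. With the block, 16 of 40 macrophage markers and 5 of 26 complement genes had a lower value of the side difference at 5 weeks. Over all genes the same test gave 330 of 18980 with a lower value. In cholesterol synthesis 7 genes were called higher and 13 lower at 1 week, against 9 and 0 at 5 weeks. There too no gene passed without the block, and 8 of 25 had a higher value at 5 weeks with it, against 167 of all 18980 genes. For the neuropeptides Vip, Npy and Gal the values were 8.77, 7.97 and 4.78 at 5 weeks and 7.67, 8.56 and 4.89 at 1 week, with adjusted p-values of the difference of 0.782, 0.796 and 0.967. For Nefm they were -0.85 and -0.84 (adjusted p = 0.992), and for Kcns3 -1.27 and -1.33 (adjusted p = 0.96).

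Females at 5 weeks were counted in another table, so that sex and table cannot be told apart. In 1 fit of all 62 libraries, 6396 genes were called in males (5 a side) and 7951 in females (6 a side) at 5 weeks. Of these genes, 4721 were called in the same direction, 73.8% of the male and 59.4% of the female calls, and 67 in opposite directions. The part of the number of libraries in the 2 totals was not tested. The difference between the sexes was called for 405 of 19209 genes (2.11%), 108 with a higher value in males and 297 with a lower one, and with the replicate block for 697 (197 and 500). Without opposite-side library 4, 55 genes had a higher value in males, and without injured-side library 5, 59.

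Many of the 297 genes were higher on the injured side in females and lower or level in males. Their medians cover the genes also tested in the male fit, which held 403 of the 405 genes called in either direction. The median log2 fold change was 0.32 in females and -0.11 in males at 5 weeks, and -0.33 in females at 1 week. Ro60, an RNA-binding protein, was at 0.17 in males and 2.06 in females at 5 weeks, a difference of -1.88 (SE 0.161, adjusted p = 1.37e-12), and at -1.60 in females at 1 week. Plcxd3, a phospholipase-like gene, was at -0.46 and 1.00, and at -1.55 in females at 1 week. Unc80, part of a sodium leak channel, had 130.4, 134, 144, 159 and 151 CPM on the opposite and 106, 102, 112, 104 and 101 CPM on the injured side in males, at -0.43 against 0.45 in females. Dmxl1, Pik3c2a and Gucy1a2 differed at -0.91 (SE 0.0854, adjusted p = 2.28e-11), -0.77 (SE 0.0732, adjusted p = 2.28e-11) and -1.22 (SE 0.126, adjusted p = 3.81e-10). Outside the naming rule, the opioid receptor Oprm1 was at -0.65 in males and 1.46 in females at 5 weeks and -2.30 in females at 1 week, and the potassium channel Kcnb2 at -0.73, 0.76 and -1.87. Ribosomal RNA took 1.6% to 2.49% of counts in the female 5 week libraries, and in females at 1 week 1.69% to 2.76% on the opposite but 0.692% to 1.42% on the injured side, and its part in these differences was not tested.

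Of the 108 genes with a higher value in males, those the naming rule picks had smaller differences. Srsf2 and Snrnp70, proteins of the spliceosome, were at 0.26 and 0.24 in males and -0.05 and -0.21 in females, differences of 0.32 (SE 0.05, adjusted p = 1.86e-05) and 0.45 (SE 0.0812, adjusted p = 2.31e-04). Leng8, Fam193b, Entr1 and Lmbr1l differed by 0.56 (SE 0.0934, adjusted p = 4.86e-05), 0.46 (SE 0.0695, adjusted p = 8.71e-06), 0.28 (SE 0.0481, adjusted p = 7.20e-05) and 0.46 (SE 0.0857, adjusted p = 3.13e-04). The male calls of Leng8 and Fam193b on their own side difference were lost without opposite-side library 4. Matrix genes were called higher in 24 of 40 in females at 5 weeks (median 0.63) and 4 of 40 in males (median 0.08), and macrophage markers in 29 and 10 of 40, yet no member of either list passed the test of the difference between sexes without the block. With it, 3 matrix genes and 6 macrophage markers had a lower value in males, against 500 of all 19209 genes. In the fit of all 62 libraries the male counts called higher were 4 matrix genes and 13 macrophage markers. Over all 19209 genes of that fit, 7951 were called in either direction in females and 6396 in males. Atf3, Npy and Gap43 were at 4.49, 7.99 and 1.61 in males and 4.56, 8.72 and 1.43 in females, with adjusted p-values of the difference of 0.955, 0.773 and 0.651.

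**Figure D5:**
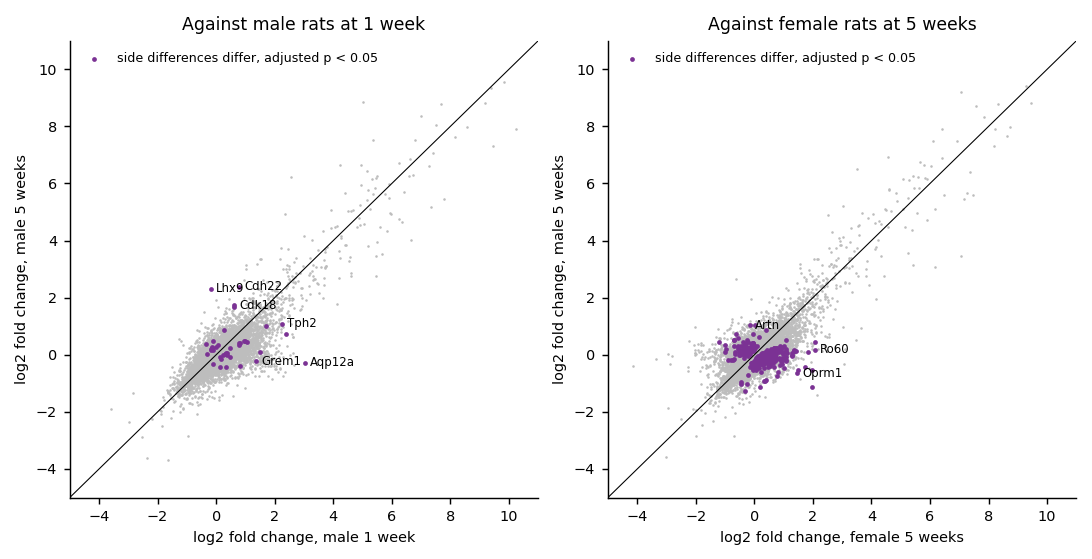
Log2 fold change between sides of each gene in males at 5 weeks (vertical axes) against males at 1 week (left) and females at 5 weeks (right), with the line of equality and, in purple, the genes whose side differences differ at an adjusted p under 0.05. The 40 purple genes on the left include Cdk18, Cdh22 and Lhx9 above the line and Grem1 and Tph2 below it. On the right, 403 of the 405 genes called are drawn, those also tested in the male fit, and most lie below the line.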

How the data were processed

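RNA was measured in whole L4 ganglia. Per the labels' protocols, poly-A libraries were made from total RNA with a stranded kit and sequenced as single reads on either of 2 instruments with different read lengths, and which library went on which is not given in the sources used here. The authors deposited an estimated count for each gene and library, often not a whole number, and these were rounded here. Per the submitters' processing notes, reads were handled with STAR (2.7.2b), featureCounts (1.6.4), bcl2fastq (2.20.0.422) and cutadapt (2.5), and the build named is mRatBN7.2.

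Libraries were grouped by their labels. The 24 male libraries at 1 and 5 weeks, which share a count table, were fitted together with edgeR 4.0.16 (R 4.3.3; TMM scaling, genes kept by a minimum count of 10, robust quasi-likelihood test, Benjamini-Hochberg adjustment over all genes tested), and the comparison of sexes used 1 fit of all 62. CPM values use the same scaling. Intervals of count ratios cover counting error only. Same-numbered libraries of the 2 sides deviated together, with correlations of 0.465, 0.459, 0.45, 0.285 and 0.267 for pairs 1 to 5. The highest correlation between unlike numbers was 0.183. The labels name no animal, and whether equal numbers share an animal or only their handling was not tested. The main fit, and the p-values and SEs from it, do not use the numbers, and a replicate block was fitted as an alternative. Others were RLE scaling, a minimum count of 50, no filter, DESeq2 1.42.0, limma-voom (limma 3.58.1), other sets of libraries and leaving out each library. The scripts were tested on simulated data.

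The members, the 32 gene lists and the rules were chosen with earlier results of these data known. Named genes are check genes, the 12 largest increases and 12 largest decreases (called, mean log2 CPM of at least 1, same sign in all 5 pairs, a full symbol), the 5 genes that gained and the 5 that lost most CPM, the 3 smallest p-values of each list and the 6 smallest per direction of each difference test. Some genes that the rule names are not reported here. Promoters came from RefSeq (GRCr8). The searches for TGACG and TATAAA were added after the sequences were seen. Protein sequences were not used here.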

Additional observations from a re-analysis of the deposited data

Results flagged for a closer look

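In 24 of 292 groups of 5 values, 1 library lay apart from the other 4 by more than 0.71 of the group's range, and chance alone gives about 1 in 20. On the opposite side, library 5 was the highest for Tubb3 (4060 CPM), Ckmt2 (18.8 CPM) and Atp2a1 (10.5 CPM) and the lowest for Col16a1 (146 CPM). Library 3 was the highest there for Sprr1a (0.139 CPM), Fcgr2b (3.48 CPM), Pax5 (1.95 CPM) and Ibsp (5.52 CPM). Library 4 was the highest for Sema3c (62.4 CPM) and the lowest for Snrnp70 (178 CPM), and library 1 the highest for Smad1 (29 CPM). On the injured side, library 3 was the highest for Nefm (6130 CPM), Nfasc (442 CPM) and Atp5f1a (546 CPM) and the lowest for Grin2b (8.94 CPM) and C4a (83.1 CPM). Library 4 was the highest for Cdh22 (11.2 CPM), Adra1a (4.04 CPM), Sema3c (143 CPM) and Ibsp (26.8 CPM). Library 1 was the lowest for Parp1 (120 CPM) and for the total count (18.9 M) and the highest for Kdr (28.3 CPM), and library 5 the lowest for Gbp4 (3.31 CPM).

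For 13 named genes the side difference differed between weeks in males, by edgeR's test of the difference at an adjusted p under 0.05. As 5 weeks minus 1 week on the log2 scale, the values were higher for Cdh22 (1.62), Cdk18 (1.14), Cpne9 (1.08), Chrm2 (0.7), Prrt2 (0.41) and Elovl6 (0.33). They were lower for Grem1 (-1.58), Tph2 (-1.15), Setd7 (-0.55), Itga7 (-0.41), Stat3 (-0.22), Parp1 (-0.22) and Aars1 (-0.2).

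For 15 named genes it differed between the sexes at 5 weeks, where sex and count table cannot be told apart. As males minus females on the log2 scale, the values were lower for Ro60 (-1.88), Plcxd3 (-1.46), Gucy1a2 (-1.22), Dmxl1 (-0.91), Unc80 (-0.88), Pik3c2a (-0.77), Pclo (-0.49), Setd7 (-0.47) and Map1b (-0.3). They were higher for Leng8 (0.56), Lmbr1l (0.46), Fam193b (0.46), Snrnp70 (0.45), Srsf2 (0.32) and Entr1 (0.28).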

How the results depend on the processing

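No named gene changed the direction of its fold change where the main fit or the alternative called it. Changes of direction in genes called in neither were not counted. The balance of calls did turn, from more lower to more higher, without opposite-side library 5, without injured-side library 1, 4 or 5, with no filter, in the fit of all 62 libraries and with both libraries numbered 3 left out (3151 higher, 2986 lower). The side difference was called for 5683 to 6701 genes when each library was left out, for 6538 with RLE scaling, 6432 with DESeq2, 6410 with limma-voom, 5470 in a fit of the male 5 week libraries alone and 7780 with the replicate block, which held 98.4% of the genes called without it. The difference between weeks (40 genes) moved most. DESeq2 called 140 (54 higher, 86 lower) and the replicate block 497 (167 higher, 330 lower). Without a filter 15 were lower, and 14 with both libraries numbered 3 left out, an alternative chosen after seeing the data. Leaving out each library gave 26 to 51 genes, 10 to 27 higher and 14 to 25 lower, with 14 lower without injured-side library 5. For the difference between sexes (405 genes) the replicate block gave 697 (197 higher, 500 lower), and without a filter 67 were higher. Leaving out each library gave 327 to 554 genes, 55 to 120 higher and 268 to 434 lower. The cause of these shifts was not tested. Of list counts under the alternatives, 105 moved by more than 1.5 times and 1111 did not. Of values of named genes, 54 no longer passed, 2 newly passed and 3063 kept their side of the threshold. With the replicate block the call of Ibsp was lost and Kdr was newly called, and it changed no other call of a named gene's side difference. Depth limits the genes near the counting floor, such as Sprr1a and Il6.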
